A study of Homo sapiens with 6 samples.

Results

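The proximal part of the imprinted 14q32 miRNA cluster was followed in MIO-M1 cells and in the extracellular vesicles (EV) that these cells secrete. MIO-M1 is an established human Müller glial cell line of wild-type genotype, and Müller cells are the radial glia of the retina. The members were the 10 rows of the deposited tables that carry the names hsa-miR-493-5p, hsa-miR-493-3p, hsa-miR-337-5p, hsa-miR-337-3p, hsa-miR-431-5p, hsa-miR-127-3p, hsa-miR-432-5p, hsa-miR-136-5p, hsa-miR-136-3p and hsa-miR-370-3p, out of 2576 miRNAs listed. They come from 7 hairpins and were chosen by name and position, with no threshold on a measured value, although earlier results of these data were known when the group was set. Small RNA libraries were made from 3 whole cell RNA samples (passages 22, 24 and 26) and from 3 samples of secreted EV (passages 23, 25 and 27), numbered 1 to 3 below in that order. Per the labels, cultures were grown with 10% fetal calf serum and then kept in serum-free medium before the EV were collected from the supernatant by centrifugation. The methods of the study name vesicle-depleted medium at that step instead, and another number of washes and duration, and describe it for the EV preparation only. RNA was extracted from cells and from EV with different kits. The paper also describes filtration and an RNase A treatment of intact EV before extraction, whereas cells were lysed directly. The fraction, this handling and the extraction therefore cannot be told apart. The cultures are passages of 1 line, and the p-values below measure the spread between these samples only.

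In a miRNA hairpin, Drosha and Dicer cut out a duplex of a 5′ arm (5p) and a 3′ arm (3p). Usually one arm is loaded into an Argonaute protein as the guide, which pairs with targets mainly through its seed, bases 2 to 8, while the other arm is degraded. The 14q32 miRNAs are expressed from the maternal chromosome only, together with the long noncoding RNAs MEG3 and MEG8, and are best known from brain, placenta and embryonic tissues. miR-431, miR-127, miR-432 and miR-136 lie antisense to RTL1, a retrotransposon-derived gene expressed from the paternal chromosome, and several of them are known to direct cleavage of its transcript.

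The mature sequences are shown because the arms of one hairpin are compared below and each arm has a seed of its own. They are taken from RefSeq (GRCh38.p14), read 5′ to 3′, with the seed in capitals. miR-127-5p is the partner arm of a member and is shown for the arm comparison.
hsa-miR-493-5p: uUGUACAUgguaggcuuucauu
hsa-miR-493-3p: uGAAGGUCuacugugugccagg
hsa-miR-337-5p: gAACGGCUucauacaggaguu
hsa-miR-337-3p: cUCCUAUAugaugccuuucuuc
hsa-miR-431-5p: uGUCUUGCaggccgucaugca
hsa-miR-127-3p: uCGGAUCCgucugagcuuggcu
hsa-miR-127-5p: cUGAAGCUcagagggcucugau
hsa-miR-432-5p: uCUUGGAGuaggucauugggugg
hsa-miR-136-5p: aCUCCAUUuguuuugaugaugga
hsa-miR-136-3p: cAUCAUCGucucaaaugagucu
hsa-miR-370-3p: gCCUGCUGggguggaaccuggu
The members have 10 different seeds, and no seed is shared with any other of the 2262 miRNAs of the tables that matched a RefSeq sequence. Proximity on the chromosome therefore does not come with a common seed. Their GC content runs from 34.8% in miR-136-5p to 68.2% in miR-370-3p.

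All members lie on the plus strand of chromosome 14. In GRCh38.p14 miR-493-5p occupies chr14:100869075-100869096, and the tables, whose build is not named, place it at 101335412 to 101335433. The tables spread the members over 42133 bases, with gaps between neighbouring hairpins from 151 bases (miR-432 to miR-136) to 26379 bases (miR-136 to miR-370). By the GENCODE 29 annotation the miR-431, miR-127, miR-432 and miR-136 hairpins fall opposite an exon of RTL1, which is on the minus strand, whereas miR-493 and miR-337 lie outside it. The miR-370 hairpin falls within the span of MEG8, and its arms are not wholly inside an annotated MEG8 exon.

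The libraries held 396025, 3990900 and 1252144 miRNA counts in whole cells and 1225541, 2038635 and 3134561 in EV. Levels are given as CPM, which are counts scaled to the total miRNA count of their library. Each mature miRNA is 1 short molecule of similar length, so CPM were not scaled by length. A count of 0 allows 3 counts, or between 0.752 CPM in cell library 2 and 7.58 CPM in cell library 1, counting error only. Müller glial miRNAs were abundant in both groups (6 of 6 passed the filter given below, 1 lower in EV, summed level 170621 to 188930 CPM in cells and 93938 to 145891 CPM in EV). The neuronal miR-124-3p had no count in any library. The list of neuron and photoreceptor miRNAs (3 of 4 passed, 2 higher in EV) summed to 227 to 333 CPM in cells and 1151 to 1218 CPM in EV. The 8 blood and serum miRNAs (4 passed, 3 higher in EV) summed to 172 to 1174 CPM in cells and 1718 to 2403 CPM in EV, with miR-451a, miR-142-5p and miR-144-3p at 0 in all cell libraries. These lists move with the fraction, and their part in the results below was not tested.

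Of the 10 members, 3 fell in EV (miR-493-5p, miR-127-3p and miR-431-5p), 1 rose (miR-136-3p) and 6 did not pass the test. A miRNA was called at an adjusted p below 0.05 in edgeR's quasi-likelihood test over 430 miRNAs, those that reached 5 CPM in 3 or more of the 6 libraries, and all 10 members passed that filter. Among all 430, 28.6% were called, 14.7% as higher and 14% as lower in EV, so calls in both directions are not particular to the members. With an additional limit of 2.5 on the absolute log2 fold change, 2 members (miR-493-5p and miR-136-3p) were called, against 21.6% of all. The CPM of cells and EV did not overlap in 6 of 10 members (2 higher and 4 lower in EV), against 48.4% of all. The median log2 fold change (EV over cells) was 0.16 over the members and -0.23 over all 430.

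**Figure D1:**
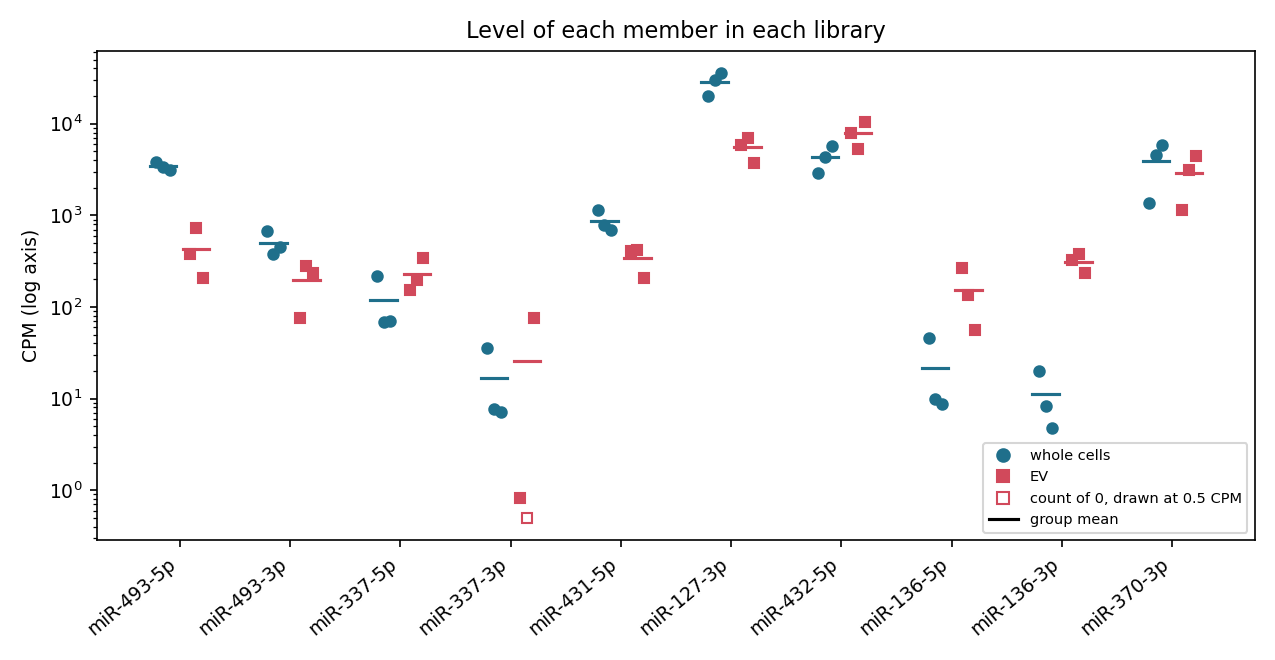
Level of each of the 10 members in every library, in CPM on a log axis, with a circle for each of 3 whole cell libraries, a square for each of 3 EV libraries, a line at the group mean and an open square for the count of 0. miR-127-3p is the highest member in cells, from 19953 to 35715 CPM, and the points of cells and EV are fully apart for 6 members.

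miR-127-3p, one of the miRNAs that target RTL1, was the leading member in cells. It stood at 19953, 29697 and 35715 CPM in cells and at 5842, 6993 and 3699 CPM in EV. Every EV library lay below every cell library, and the mean fell from 28455 ± 7954 to 5511 ± 1672 CPM (SD, n = 3), a ratio of 5.16. The log2 fold change was -2.43 ± 0.43 (SE, edgeR, adjusted p = 0.00872). Among all 2576 miRNAs it ranked 8 by mean log2 level in cells and 32 in EV. The call was kept when each library was left out in turn (edgeR, adjusted p from 0.00961 to 0.0380). It was lost with the GC trend removed (log2 fold change -0.50, edgeR, adjusted p = 0.326). For that fit, a smooth trend with the GC content of the mature sequence was taken out of each library. The trend was fitted on the 390 miRNAs with a sequence, without regard to group. Its removal therefore also takes out any difference between cells and EV that follows GC content. In the paper's RT-qPCR, miR-127-3p was among the miRNAs whose relative enrichment was reported as comparable with the sequencing.

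miR-493-5p comes from the first hairpin of the member group, outside RTL1. Its levels were 3810, 3389 and 3129 CPM in cells and 376.98, 719 and 206 CPM in EV. The cell libraries differed little among themselves and all EV libraries were far below them, with a ratio of means of 7.94. The log2 fold change was -3.05 ± 0.43 (SE, edgeR, adjusted p = 0.00448), and it was -4.45 (edgeR, adjusted p = 0.00242) with the GC trend removed.

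miR-136-3p, the 3′ arm of the last hairpin opposite RTL1, was the only member called as higher in EV by edgeR. It had 8, 33 and 6 counts in cells, or 20.2, 8.27 and 4.79 CPM, and 398, 779 and 730 counts in EV, or 325, 382.1 and 233 CPM. All EV libraries were above all cell libraries, and the EV libraries varied little. The exact 95% intervals (Clopper-Pearson, counting error only) of the cell libraries reached 39.8, 11.6 and 10.4 CPM at most, so their level is known less well than the EV level. The EV mean was 28.3 times the cell mean. On the log2 scale the fitted change was 4.95 ± 0.73 (SE, edgeR, adjusted p = 0.00511), and 4.47 (edgeR, adjusted p = 0.00424) once the GC trend was removed. Its rank moved from 351 in cells to 114 in EV.

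miR-431-5p, another miRNA antisense to RTL1, fell by less. It was at 1144, 787 and 693 CPM in cells and at 406, 418 and 210 CPM in EV, with no overlap. The log2 fold change was -1.32 ± 0.39 (SE, edgeR, adjusted p = 0.0406). This call depended on single libraries: it was kept without EV library 1 (edgeR, adjusted p = 0.0282) and lost when any of the other 5 libraries was left out (edgeR, adjusted p up to 0.170). With the GC trend removed the value was 0.22 (edgeR, adjusted p = 0.761).

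The other 2 members without overlap between groups did not pass the test. miR-136-5p, partner of miR-136-3p, was at 45.5, 10.0 and 8.78 CPM in cells and 265, 135 and 55.8 CPM in EV (log2 fold change 3.03 ± 1.04, SE, edgeR, adjusted p = 0.0697). miR-493-3p was at 669, 382.4 and 455 CPM in cells and 76.7, 279 and 236 CPM in EV (-1.35 ± 0.54, SE, edgeR, adjusted p = 0.113). DESeq2 called both, with adjusted p of 0.0193 and 0.0203, and so called 6 of the 10 members. It also called more miRNAs in general, 149 of the 430 filtered, against 123 for edgeR. The higher count was thus not confined to the members, and whether it rose more among them was not tested. Without EV library 3, edgeR also called miR-136-5p (3.34, adjusted p = 0.0294).

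For the remaining 4 members the groups overlapped. miR-432-5p, antisense to RTL1, was at 2874, 4330 and 5714 CPM in cells and at 7855, 5331 and 10488 CPM in EV (log2 fold change 0.87 ± 0.48, SE, edgeR, adjusted p = 0.255). It had the highest mean of the members in EV, although miR-127-3p was above it in EV library 2, and only its second EV library lay within the range of the cells. With the GC trend removed it was called (2.29; edgeR, adjusted p = 0.0238).

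miR-370-3p varied widely in both groups, at 1369, 4536 and 5917 CPM in cells and 1143, 3085 and 4428 CPM in EV (log2 fold change -0.54 ± 0.70, SE, edgeR, adjusted p = 0.638). miR-337-5p was at 220, 69.2 and 70.3 CPM in cells and 153, 196 and 344 CPM in EV (1.08 ± 0.66, SE, edgeR, adjusted p = 0.299). For these members no difference larger than the spread between libraries was found, which does not show that the levels were equal.

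miR-337-3p had few counts except in 1 EV library, and was at the detection floor in the other EV libraries. It had 14, 31 and 9 counts in cells (35.4, 7.77 and 7.19 CPM) and 1, 0 and 237 counts in EV, the last being 75.6 CPM. Its change on the log2 scale, 0.88 ± 2.05 (SE, edgeR, adjusted p = 0.798), rests on EV library 3, and without that library it was -5.23 (edgeR, adjusted p = 0.0453). That library also had the fewest miRNAs with a count among the 6.

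**Figure D2:**
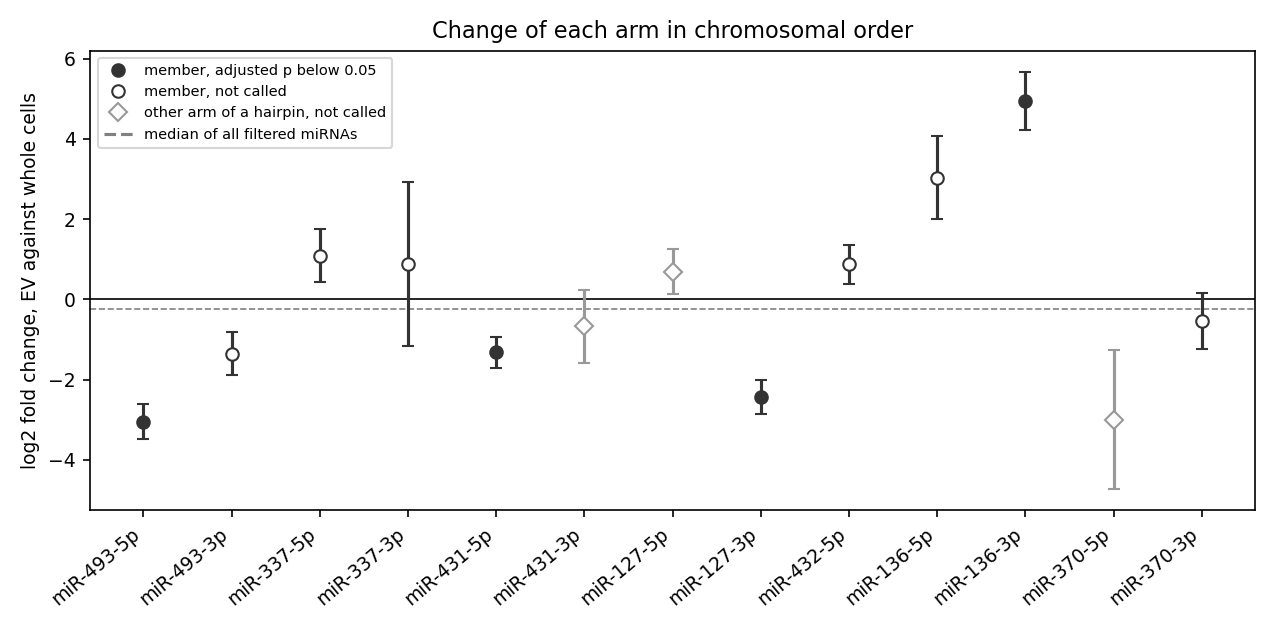
Log2 fold change of EV over whole cells for each member (circles, filled where the adjusted p was below 0.05) and for the other arms of their hairpins past the filter (diamonds), from edgeR, with the standard error as a bar and a dashed line at the median of all filtered miRNAs. The called values run from -3.05 for miR-493-5p to 4.95 for miR-136-3p, and miR-337-3p has the widest bar, with a standard error of 2.05.

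The members were then ordered by their mean level. In cells the mean of miR-127-3p was followed by miR-432-5p at 4306 ± 1420, miR-370-3p at 3940 ± 2332 and miR-493-5p at 3443 ± 344 CPM (SD, n = 3), and these 3 neighbours did not differ beyond their spread. miR-431-5p (875 ± 238 CPM) and miR-493-3p (502 ± 149 CPM) came next, then miR-337-5p (120 ± 86.6 CPM). The lowest were miR-136-5p (21.4 ± 20.8 CPM), miR-337-3p (16.8 ± 16.1 CPM) and miR-136-3p (11.1 ± 8.08 CPM), whose ranges overlapped. In EV the mean of miR-432-5p was 7891 ± 2579 CPM, with miR-127-3p at 5511 ± 1672 and miR-370-3p at 2885 ± 1651 CPM, and each overlapped its neighbour, so the order of these means is not resolved. miR-493-5p, miR-431-5p, miR-136-3p and miR-337-5p followed at 434, 345, 313 and 231 CPM, with overlapping ranges. miR-493-3p (197 ± 107 CPM), miR-136-5p (152 ± 106 CPM) and miR-337-3p (25.5 ± 43.4 CPM) were last.

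The members together took 3.01%, 4.32% and 5.17% of all miRNA counts in cells and 1.64%, 1.75% and 2.0% in EV. miR-127-3p made up 68.0% ± 1.56 of that sum in cells and 31.3% ± 11.3 in EV (SD, n = 3), with EV values of 35.5%, 39.9% and 18.5%. miR-432-5p went from 10.2% ± 0.774 in cells to 43.6% ± 11.6 in EV. The share of miR-493-5p was 8.85% ± 3.41 in cells and 2.47% ± 1.54 in EV, and that of miR-370-3p was 8.83% ± 3.74 and 15.6% ± 7.81, with overlap. The shares add to a whole, so a lower share of one member raises the others. Of the counts of the whole 14q32 list, the members held 45.2% ± 7.15 in cells and 25.5% ± 1.36 in EV.

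**Figure D3:**
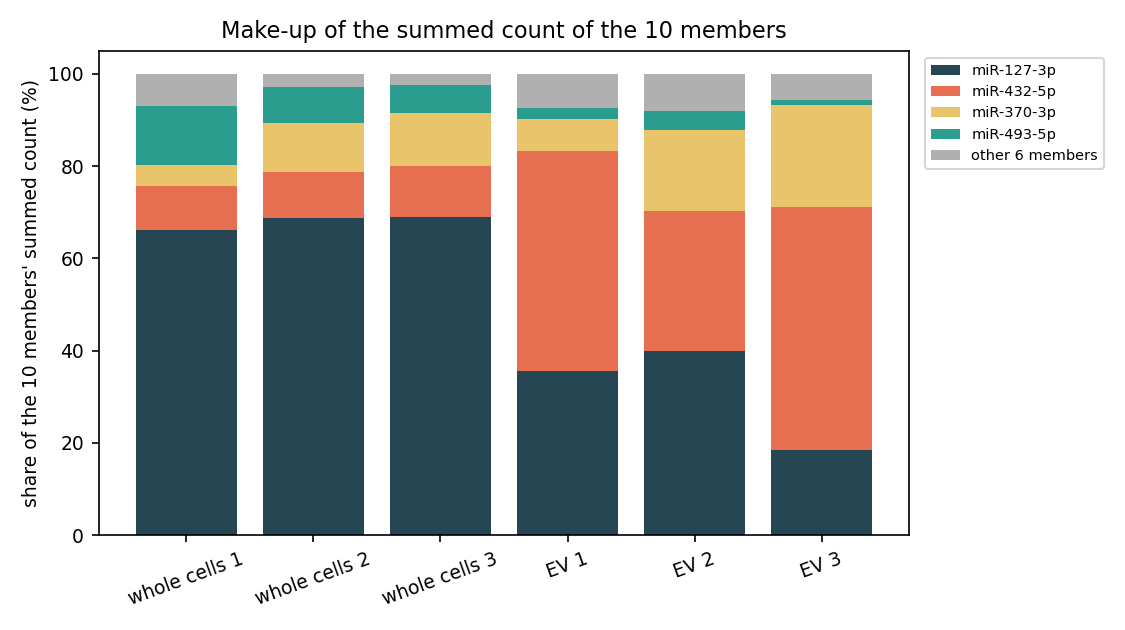
Share of each member in the summed counts of the 10 members, in percent, as stacked bars for the 3 whole cell and 3 EV libraries, with the 6 lower members joined. miR-127-3p fills 68.0% on average in cells and 31.3% in EV, where miR-432-5p takes 43.6%.

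The arms of one hairpin were then compared within each library, as log2(CPM of 5p + 4) minus log2(CPM of 3p + 4), a measure in which 0 means equal arms and a positive value means more 5p. limma tested the change of this ratio over the 110 hairpins with both arms past the filter, 6 of which belong to members. The change was called for 1 of these 6, miR-127, against 25.5% of all 110. The groups did not overlap for 3 of 6 (miR-127, miR-136 and miR-493), against 45.5% of all.

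In the miR-127 hairpin the 3p arm exceeded the 5p arm in all libraries, but by less in EV. The log2 ratio was -7.03, -7.28 and -7.76 in cells and -5.05, -3.78 and -4.32 in EV, a change of 2.97 ± 0.58 (SE, limma, adjusted p = 0.00180). miR-127-3p fell, as given above, whereas miR-127-5p was at 165 ± 19.5 CPM in cells and 287 ± 190 CPM in EV (SD, n = 3; log2 fold change 0.69, edgeR, adjusted p = 0.433). The arms of this hairpin thus did not change alike, and the change of the ratio was 2.67 (limma, adjusted p = 0.00554) with the GC trend removed.

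The 5p arm of miR-136 had the higher count in the cell libraries (18 against 8, 40 against 33 and 11 against 6) and the 3p arm in the EV libraries (398 against 325, 779 against 275 and 730 against 175). The exact 95% intervals of the arms (Clopper-Pearson) overlapped in all 3 cell libraries and were apart in EV libraries 2 and 3. In EV library 1 they overlapped only at their ends (237 to 296 CPM for 5p and 294 to 358 CPM for 3p). Overlap of intervals is not a test of a difference, and the arms were not tested against each other within a library. The log2 ratio was 1.03, 0.19 and 0.54 in cells and -0.29, -1.48 and -1.99 in EV. The change of -1.84 ± 0.96 (SE, limma, adjusted p = 0.196) did not pass the test. With the GC trend removed it was -2.70 (limma, adjusted p = 0.0437).

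The miR-493 hairpin was dominated by 5p in cells, with log2 ratios of 2.5, 3.13 and 2.77, and less so in EV, at 2.24, 1.35 and -0.20. The change of -1.67 ± 0.82 (SE, limma, adjusted p = 0.171) did not pass the test, and with the GC trend removed it was -3.90 (limma, adjusted p = 0.00810). The other 3 hairpins overlapped between groups. The change was 1.64 ± 1.10 for miR-337 (SE, limma, adjusted p = 0.295), and 2.71 (limma, adjusted p = 0.0281) without EV library 3. In the EV libraries left in that fit miR-337-3p had 1 and 0 counts, so their ratios depend on the 4 CPM added to each arm. The change was -2.26 ± 1.12 for miR-370 (SE, limma, adjusted p = 0.171) and -1.09 ± 1.11 for miR-431 (SE, limma, adjusted p = 0.472). With 1 CPM added instead, the changes of miR-337 and miR-370 were 2.49 and -3.27, and with 16 CPM they were 1.03 and -1.16. miR-432-3p, with 0, 16 and 2 counts in cells and 1, 0 and 1 in EV, did not pass the filter, so miR-432 was not tested.

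**Figure D4:**
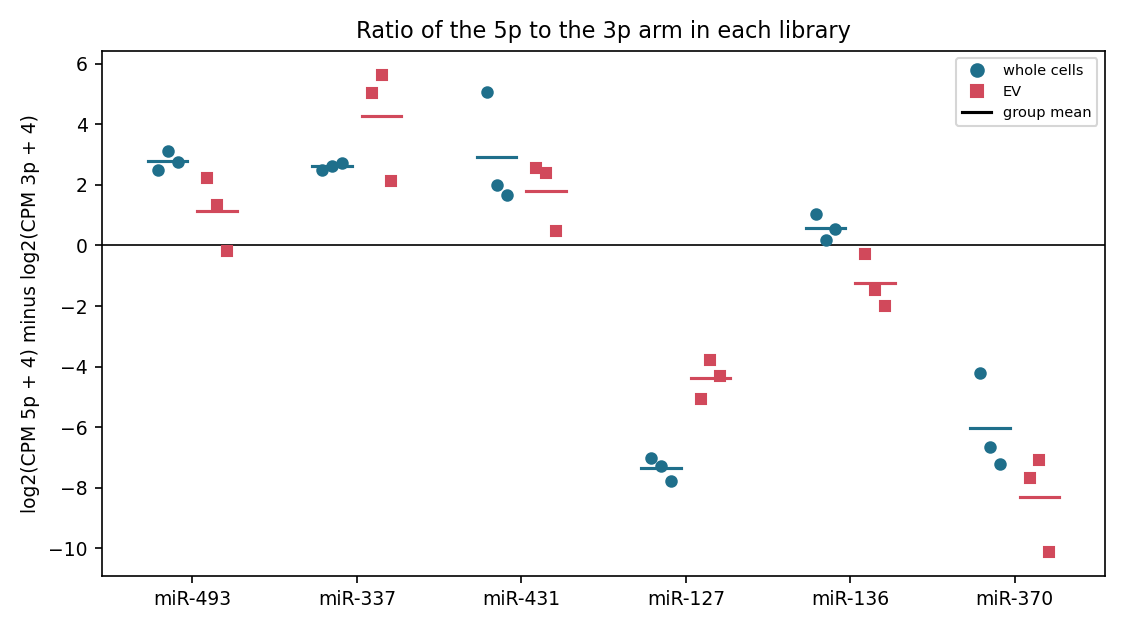
Log2 ratio of the 5p to the 3p arm in every library for the 6 hairpins with both arms past the filter, with a circle for each of 3 whole cell and a square for each of 3 EV libraries, short lines at the group means and a long line at 0 for equal arms. The miR-127 points lie between -7.76 and -7.03 in cells and between -5.05 and -3.78 in EV, and the miR-136 points cross the line.

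The changes moved with GC content across all miRNAs. Of the 116 miRNAs under 45% GC, 37 rose and 9 fell in EV (median log2 fold change 1.19). Among those over 55% GC, 2 rose and 21 fell (median -1.27). Spearman's correlation between GC content and log2 fold change was -0.42 across 390 miRNAs with a sequence and -0.43 across the 10 members, given as a description because miRNAs share libraries. miR-493-5p fell with a GC content of 36.4%, whereas miR-127-3p (59.1%) and miR-431-5p (57.1%) fell on the side where most called miRNAs fell. With the GC trend removed, 3 members were called (miR-493-5p, miR-136-3p and miR-432-5p). In that fit 110 miRNAs were called in all, against 123 in the main fit, so calls there are not particular to the members.

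**Figure D5:**
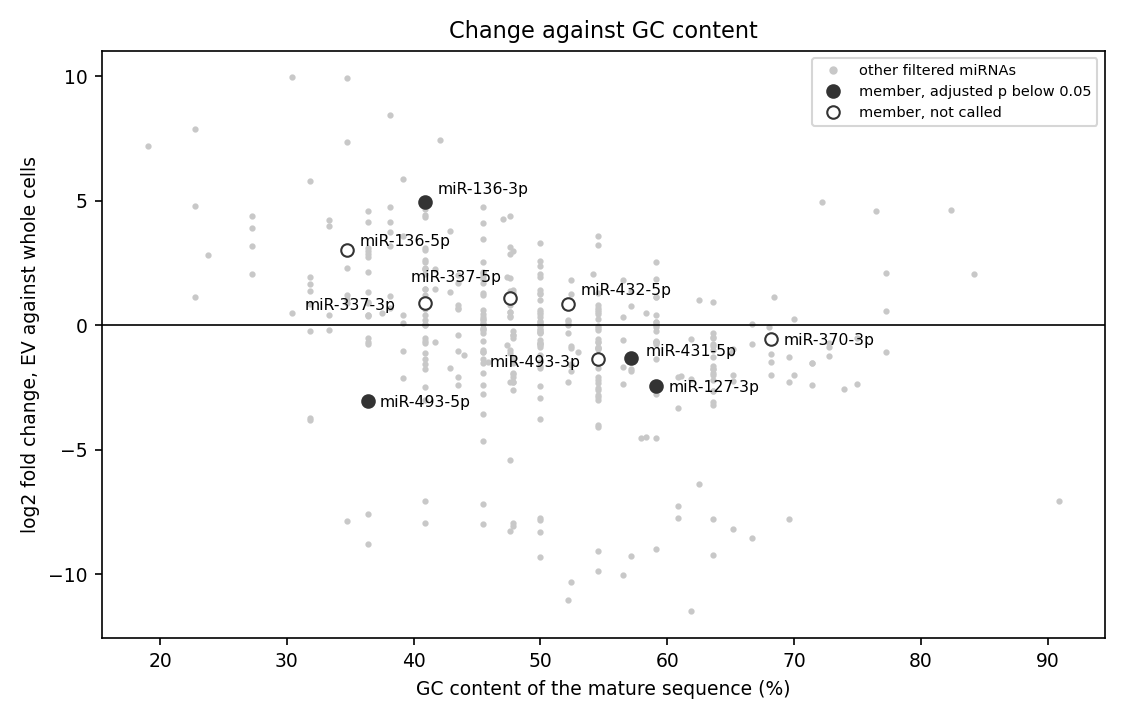
Log2 fold change of EV over whole cells against the GC content of the mature sequence in percent, with a small point for each filtered miRNA and a large point for each member, filled where the adjusted p was below 0.05. miR-493-5p, at 36.4% GC and -3.05, lies apart from miR-136-3p, at 40.9% GC and 4.95.

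Short letter runs that have been linked to EV sorting were looked up on the sense strand of the mature sequences. GGAG was found in miR-337-5p and miR-432-5p, in 15.8% of all 2262 sequences and in 10.5% of the 390 that passed the filter. GGCU was found in miR-493-5p, miR-337-5p and miR-127-3p, in 12.5% of all and in 14.4% of those filtered. CCCU was in no member, in 12.1% of all and in 10.8% of those filtered.

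Of the 8 other arms and neighbouring miRNAs of the proximal cluster, 6 passed the filter, 0 rose and 1 fell in edgeR's test, with 1 at an unadjusted p below 0.05 and 1 called by DESeq2. That one was miR-770-5p, the first miRNA of the cluster, at 15.2, 15.3 and 10.4 CPM in cells and without a count in any EV library (edgeR, adjusted p = 0.0109). This is at least 8.37-fold lower against the mean of 3 counts per EV library. It met the filter through the cell libraries alone, the group where it is high, so its p-value is no separate support for a fall. The others were miR-431-3p (log2 fold change -0.68), miR-127-5p (0.69), miR-370-5p (-2.999), miR-665 (-1.99) and miR-433-3p (-0.05), none of which passed edgeR's test. Of the 74 listed miRNAs in the rest of 14q32, 58 passed the filter, 13 rose, 8 fell and 37 did not pass the test, with a median log2 fold change of -0.08. Of all 430, 14.7% were called as higher and 14% as lower in EV, with a median of -0.23.

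For each member, the most similar miRNA outside 14q32 was taken as the one of 356 filtered miRNAs with the smallest Euclidean distance over the 6 libraries between centred log2(CPM + 4) values. The closest pairs were miR-431-5p with miR-23b-3p at a distance of 0.439, and miR-136-3p with miR-148a-3p at 0.529. miR-432-5p was nearest to miR-532-5p (0.729), miR-337-5p to miR-17-5p (0.731), miR-493-3p to miR-125b-5p (0.866) and miR-370-3p to miR-574-3p (0.947). miR-493-5p, miR-136-5p and miR-337-3p had no neighbour closer than miR-30c-1-3p (1.32), miR-29b-3p (1.37) and miR-551b-3p (1.54). The mean of miR-30c-1-3p in EV was 4.03 CPM, so the pseudocount bears on its distance. The log2 fold change of miR-551b-3p was -0.92, of opposite sign to the 0.88 of miR-337-3p. For miR-127-3p the smallest distance was to miR-6511b-3p (0.678), which had no count in any EV library, so that this distance is set by the pseudocount and shows no likeness (log2 fold change -8.17, against -2.43 for miR-127-3p).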

How the data were processed

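Small RNA libraries (QIAseq miRNA kit) were analysed from 3 whole cell and 3 EV samples of MIO-M1 cells, grouped by the labels. The authors deposited 1 table of raw counts per sample, made per the file headers with featureCounts 1.5.0-p1, strand setting 1, on miRBase 20. The methods name Bowtie2 where the headers name Bowtie1 alignments, and they name another miRBase release. The genome build and any use of molecular identifiers were not given in the sources used here, so intervals and floors cover counting error only.

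Counts were scaled with TMM factors and tested with edgeR 4.0.16 (quasi-likelihood, two-sided, Benjamini-Hochberg over the 430 miRNAs with at least 5 CPM in 3 libraries), in R 4.3.3. Arm ratios used limma 3.58.1 with a pseudocount of 4. No 2 libraries were near-copies: between any pair, chi-square over its degrees of freedom was 41.9 or more. Alternatives were DESeq2 1.42.0, other scalings, filters, thinning, limits, a GC trend removed and each library left out. Named miRNAs were the 10 members, the other arms and neighbours, and 1 nearest miRNA each. Members and lists were chosen with earlier results of these data known.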

Additional observations from a re-analysis of the deposited data

How the results depend on the processing

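No fit with a replicate block was made, since the labels give passages, which no cell and EV sample share, and the library numbers used here only follow accession order. Of 259 alternative values for single miRNAs and arm ratios, 236 kept their direction and side of the threshold, 10 lost the call, 8 gained it and 5 changed sign. These include the main fits read at an adjusted p below 0.01, where no direction can change and no call can be gained. Values uncalled in the main fit count as kept when they stay uncalled with the same sign, so the 236 do not measure how firm the calls are. The sign changed in miR-337-3p without EV library 3 (-5.23, against up to 1.57 with another library left out) and, with the GC trend removed, in miR-493-3p (0.22), miR-431-5p (0.22), miR-370-3p (1.77) and miR-431-3p (1.83). The number of miRNAs called by edgeR was 123, and was 240 without a filter, 31 at an adjusted p below 0.01, and 25 with a log2 limit of 2.5 added, which left 2 members. Leaving out 1 library gave 74 to 143 miRNAs and 3 to 5 members. The lowest counts were 74 without cell library 2 and 81 without cell library 3. The number of hairpins called by limma was 28, and was 60 without a filter and 17 at 0.01. It was 32 with the GC trend removed and 19 to 33 with 1 library left out. For the member hairpins it was 1, and was 3 with the GC trend removed and 1 to 2 with 1 library left out (2 without EV library 3). The arm changes with the GC trend removed were -3.90 for miR-493 and -2.70 for miR-136, and that of miR-337 ranged from 0.95 to 2.71 with 1 library left out. With the GC trend removed miR-127-5p was called (2.16; edgeR, adjusted p = 0.0208). The miR-431-5p call was also lost with library totals (edgeR, adjusted p = 0.0608), without a filter (0.0745) and after thinning to equal depth (0.0501). The causes were not tested.

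The median log2 fold change of all 430 miRNAs moved from -0.23 with TMM to -0.41 with RLE factors and to 0.35 with the GC trend removed. Relative to that median, over the 4 scalings run in edgeR, miR-493-5p lay between -2.90 and -2.77, miR-127-3p between -2.20 and -2.15, miR-431-5p between -1.18 and -1.09 and miR-136-3p between 5.06 and 5.18. Subtracting the median takes out any shift that a scaling gives to all miRNAs, so narrow ranges are largely built in and are no test of the scaling. With 3 libraries a group, an exact permutation test of a single value could not go below p = 0.1. Cell library 1, the shallowest at 396025 counts, limits what can be said of miR-136 and miR-337-3p in cells.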
